A study of Mus musculus with 6 samples.

Results

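The genes described here are 30 chromatin modifier and remodeler genes of the mouse cochlea. They were selected on their listing by the authors as down-regulated (21 genes) or up-regulated (9 genes) after cell treatment, and on a gene symbol that begins like a known chromatin family (Kdm, Kmt, Setd, Kat, Hdac, Sirt, Smarc, Chd, Baz, Brd, Arid, Tet, Mbd, Phf, Prdm, Cbx, Pcgf, Nipbl or Smc, among others). The authors' lists name 3716 of the 41096 genes in the deposited table, and 226 protein-coding symbols of the RefSeq annotation would fit the spelling rule. Since the lists were made from the same contrast and the same libraries, the direction of each gene was fixed by its selection and is given as a description. The label did not hold for every gene. Smco1, which encodes a membrane protein with coiled-coil regions, and Phf24, which encodes a neuronal protein that binds inhibitory G protein subunits, matched by spelling only, and Sirt4 is a true sirtuin but works in mitochondria rather than on chromatin.

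RNA was sequenced from the left cochlea of 6 mice of the strain spelled C56Bl/6 in the labels and C57BL/6 in the study's methods, which describe females aged 4 weeks. All 6 were exposed to 16 kHz narrow band noise. In 3 of them, specimens 6, 8 and 10, the labels name the noise as the only treatment (sound trauma), while the study's methods add that control animals received artificial perilymph through the posterior semicircular canal. The other 3, specimens 13, 18 and 20, received mesenchymal stromal cells (MSCs) grown from the Wharton's jelly of human umbilical cord by the same route (MSC treated). RNA was taken 2 days after treatment by the labels, and the methods give a longer interval. There was no cochlea without noise among these samples, so the comparison asks how gene expression differed with cell treatment in noise-damaged ears. Values are scaled counts, that is, reads per gene multiplied by 1 factor per library, from 9170390 to 11030863 reads on genes per library.

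DNA in the nucleus is wound around histones, and chromatin proteins change how accessible it is. Remodelers use ATP to slide or evict nucleosomes, writers and erasers add or remove methyl and acetyl groups on histone tails or on cytosines, readers bind those marks, and cohesin and condensin fold the chromatin fibre into loops and chromosomes. Most such genes are expressed in nearly every cell type, but a few are used mainly in neurons or muscle. In the ear the field is known above all for CHD7, whose loss causes CHARGE syndrome with malformed semicircular canals and deafness. The cochlea lies in the temporal bone, so a dissected specimen can also carry bone marrow, nerve, muscle or skin.

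Promoter sequence is shown for 5 of these genes, the 3 with the largest differences between groups (Smco1, Phf21b and Prdm8), the SWI/SNF subunit Smarcd3, and Arid3b, whose values were all higher in MSC treated cochleae. Each is the stretch from 170 to 21 bases before the start of the RefSeq transcript, read 5′ to 3′ on the strand of the gene in build GRCm38.p6, with CpG dinucleotides in capitals, since CpG is the substrate of the DNA methylation that Tet1 removes. The stretches are chr15:84855120-84855269 on the minus strand for Phf21b, chr5:24602023-24602172 on the minus strand for Smarcd3, chr9:57836800-57836949 on the minus strand for Arid3b, chr5:98180699-98180848 on the plus strand for Prdm8 and chr16:32271310-32271459 on the plus strand for Smco1.
Phf21b: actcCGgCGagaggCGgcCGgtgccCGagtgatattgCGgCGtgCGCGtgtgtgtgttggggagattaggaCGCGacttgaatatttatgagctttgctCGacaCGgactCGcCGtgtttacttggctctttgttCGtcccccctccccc
Smarcd3: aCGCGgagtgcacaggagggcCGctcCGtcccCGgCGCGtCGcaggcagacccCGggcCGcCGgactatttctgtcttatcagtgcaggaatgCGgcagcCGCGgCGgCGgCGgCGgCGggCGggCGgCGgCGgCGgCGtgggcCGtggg
Arid3b: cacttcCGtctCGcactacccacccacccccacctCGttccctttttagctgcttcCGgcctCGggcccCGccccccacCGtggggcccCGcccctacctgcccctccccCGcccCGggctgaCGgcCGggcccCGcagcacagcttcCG
Prdm8: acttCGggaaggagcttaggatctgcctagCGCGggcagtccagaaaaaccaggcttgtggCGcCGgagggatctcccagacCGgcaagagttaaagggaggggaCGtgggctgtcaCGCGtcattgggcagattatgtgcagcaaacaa
Smco1: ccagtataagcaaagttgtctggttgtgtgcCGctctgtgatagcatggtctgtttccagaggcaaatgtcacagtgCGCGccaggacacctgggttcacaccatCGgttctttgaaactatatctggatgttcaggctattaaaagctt

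These 150 bases hold 26 CpG pairs in Smarcd3, 16 in Phf21b, 14 in Arid3b, 9 in Prdm8 and 4 in Smco1. RefSeq windows from 250 bases before to 50 bases after the start were at hand for 23 of the 30 genes, 28 windows in all, and Arid2, Arid3a, Baz1a, Chd7, Kdm6b, Nipbl and Smc4 had no entry. The median window of these genes held 22.5 CpG pairs, against 7 over all 32851 windows of the table. Those windows were not limited to genes expressed in these samples, while all 30 genes were expressed enough to be tested. What that difference adds to the CpG and motif shares was not tested. The observed number of CpG pairs was over 0.6 of that expected from base composition in 22 of 28 windows (78.6%), against 35.8% of all windows. Prdm8, Smco1 and Arid5b were among the windows under that ratio.

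Motifs were searched by their letters on both strands. GGGCGG, the core of SP factor sites, was found in 18 of 28 windows, against 35.7% of all windows, and CCGGAA, the ETS core, in 5 of 28 against 14.9%. An NRF1 site was found in 3 (all windows 4.60%) and CCAAT in 6 (37.4%). TATAAA was found only in Arid5b (13.6% of all windows) and the AP-1 letters TGANTCA only in Smarca2 (7.81%). CAGCTG, an E-box, was in 7 windows (16.3%), GGACAG, the right part of the RE1 element of the neuronal repressor REST, in 8 (22.2%) and CAGCACC, its left part, in 2 (7.14%). The full CRE, TGACGTCA, was in none, against 1.79% of all windows. Both GGGCGG and CCGGAA contain a CpG pair, and their relation to the CpG content of the windows was not tested.

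None of the 30 genes passed a test across all genes. In limma on log2(scaled count + 1) the adjusted p of these genes was between 0.954 and 0.965, and the share of the 15970 genes tested that passed an adjusted p of 0.05 was 0%. At an unadjusted p under 0.05 limma called 0 of the 30, against 0.670% of all genes tested called lower and 1.68% called higher in MSC treated cochleae. The smallest unadjusted p of a member was 0.0637, for Phf21b. All 30 passed the filter on low counts. Samples were few and variable: 6 of the 30 genes had a log2 difference smaller than its standard error (SE) and only 3 (Phf21b, Pcgf2 and Sirt4) one larger than 2 SE. Differences are given as MSC treated minus sound trauma, so a negative value is lower after treatment.

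**Figure D1:**
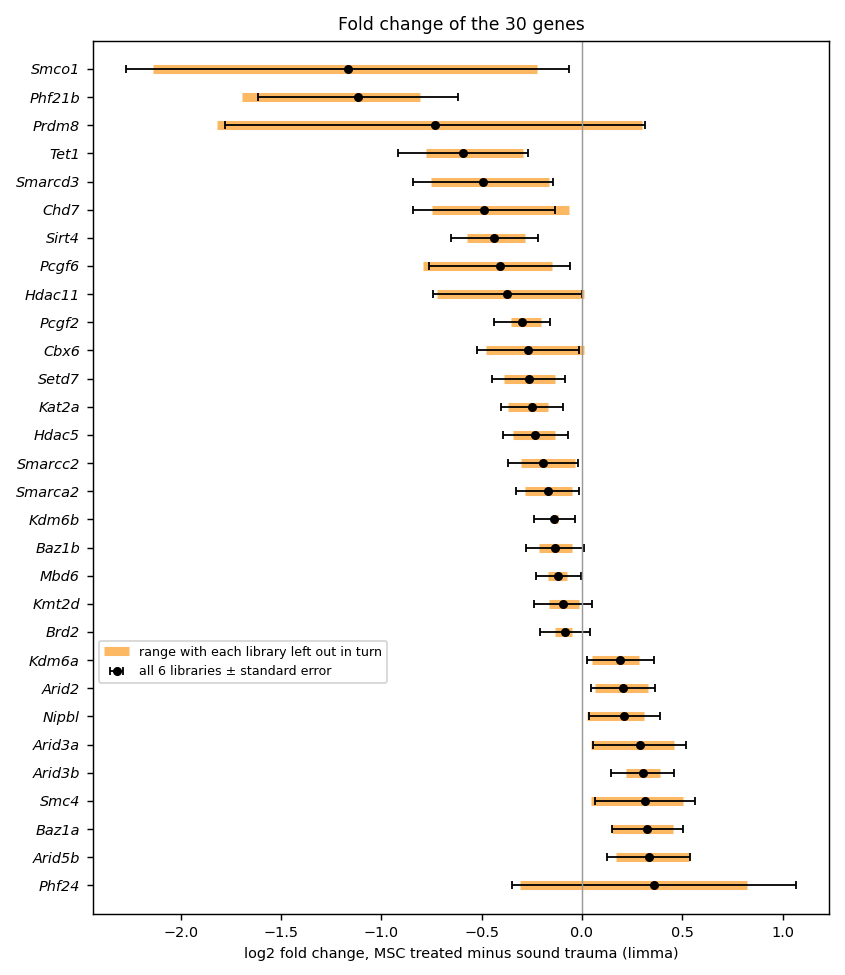
Log2 difference in scaled count between MSC treated and sound trauma cochleae (horizontal axis; points are limma estimates and thin bars 1 SE, from 3 against 3 libraries) for the 30 genes, with thick orange bars for the range when each library is left out in turn. The estimates run from -1.17 (Smco1) to 0.36 (Phf24), and the longest thin bars are those of Smco1, Prdm8 and Phf24.

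The SWI/SNF complexes, which evict nucleosomes, were represented by 3 Smarc subunits and by Arid2. Smarcc2, the BAF170 scaffold subunit, was the most abundant of the 30 genes per length, with the authors' mean FPKM at 67.7 in sound trauma and 60.7 in MSC treated cochleae. Values by library are given in the order of specimens 6, 8 and 10, then of specimens 13, 18 and 20. Smarcc2 had 2920.5, 4232 and 3152 scaled counts in sound trauma and 2885, 2893 and 3106 in MSC treated cochleae. Specimen 8 alone stood above the rest, and the groups overlapped (log2 difference -0.20, SE 0.17). Smarca2, the BRM ATPase that drives these complexes, had 1719.8, 2378 and 1978 in sound trauma and 1631, 1853 and 1879 in MSC treated cochleae, again with its highest value in specimen 8 (log2 difference -0.17, SE 0.16). Without specimen 8 the differences were -0.04 for Smarcc2 and -0.05 for Smarca2.

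Smarcd3 encodes BAF60c, the subunit that brings the complex to muscle genes in heart and skeletal muscle. It had 1000.1, 467 and 543 scaled counts in sound trauma and 645, 355 and 396 in MSC treated cochleae. It was highest in specimen 6 and, within the MSC treated group, 0.78 higher on the log2 scale in specimen 13 than in the mean of the other two. The log2 difference between groups was -0.49 (SE 0.35) with all libraries and -0.16 without specimen 6. The summed skeletal muscle markers were ordered in a like way. They made up 9.82% of all scaled counts in specimen 6 and 6.17% in specimen 13, against 0.490% to 2.80% in the other 4 libraries. Not every marker of that list followed the sum. Myh7, Tnnt1, Tnni1 and Tnnc1 were higher in specimen 10 than in specimen 13, such as Myh7 at 1946 against 423. Tnnt1 and Tnni1 were highest in specimen 10. The part of muscle in the Smarcd3 values was not tested. In these bulk samples, fewer cells of a type and less RNA per cell cannot be told apart.

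Arid2, the subunit that marks the PBAF form of SWI/SNF, and 3 other genes with an AT-rich interaction domain were on the up-regulated list. Arid2 had 712, 875 and 1027 scaled counts in sound trauma and 967, 974 and 1039 in MSC treated cochleae. Arid3b, a DNA-binding factor with roles in development, had 170.4, 189 and 214 against 234, 215 and 258, so its groups did not overlap (log2 difference 0.30, SE 0.16, limma adjusted p 0.954). Arid3a, its close relative known from B cell development, had 339.6, 526 and 601 against 607, 514 and 629. Arid5b, which works with the histone demethylase PHF2, had 316, 373 and 524 against 446, 542 and 512 (log2 difference 0.33, SE 0.21). All 4 had their lowest value in specimen 6, and specimen 10 lay within or next to the MSC treated values in each. Without specimen 6 the log2 differences were 0.07 for Arid2, 0.05 for Arid3a, 0.22 for Arid3b and 0.17 for Arid5b.

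BAZ1A (ACF1) and BAZ1B (WSTF) are the non-catalytic partners of the ISWI ATPase, and the first was on the up-regulated and the second on the down-regulated list. Baz1a had 457, 626 and 699 scaled counts in sound trauma and 750.1, 741 and 708 in MSC treated cochleae, with no overlap between groups (log2 difference 0.33, SE 0.18, limma adjusted p 0.954), and the difference was 0.15 without specimen 6. Baz1b had 1832, 2256 and 1946 against 2043, 1814 and 1642, and its groups overlapped (-0.13, SE 0.14, and -0.05 without specimen 8).

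Chd7, the CHD remodeler of inner ear and neural development, had 759, 1733 and 669 scaled counts in sound trauma against 668, 715 and 665 in MSC treated cochleae. The values were close together in all libraries but that of specimen 8, which was 2.59 times specimen 10. The log2 difference was -0.49 (SE 0.35) and became -0.06 without specimen 8. In a like order, the markers of neurons summed to 54272 scaled counts in specimen 8, against 10826 to 21458 in the other libraries. Those of the cerebellum summed to 25990 against 1820 to 4390. Whether neurons or cerebellar cells carry the Chd7 reads was not tested.

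**Figure D2:**
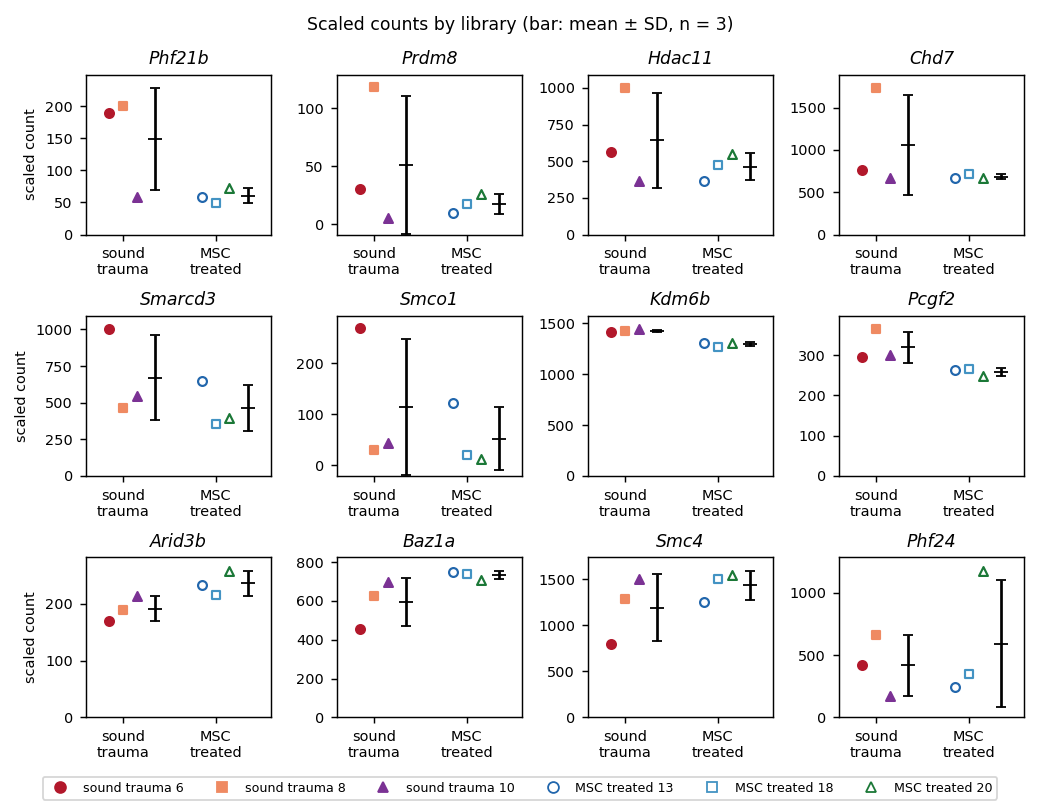
Scaled counts (vertical axes, starting at or below 0) of 12 genes in each of the 6 libraries, with the mean and SD of the 3 libraries of each group as bars. Chd7, Hdac11 and Prdm8 are highest in specimen 8, Smarcd3 and Smco1 in specimen 6 and then specimen 13, and the groups are apart in Kdm6b, Pcgf2, Arid3b and Baz1a.

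Among the histone methylation enzymes, the smallest spread was seen in Kdm6b (JMJD3), a demethylase induced by inflammatory signals that removes the repressive mark of Polycomb. It had 1413, 1418 and 1438 scaled counts in sound trauma and 1309, 1266 and 1307 in MSC treated cochleae. The groups did not overlap, at means of 1423 ± 13.6 and 1294 ± 23.9 (SD, n = 3 each), but the log2 difference of -0.14 (SE 0.10) did not pass the test, in which limma draws a small spread towards that of all genes. Kdm6a (UTX), which removes the same mark and is encoded on the X chromosome, was on the up-regulated list with 579, 769.6 and 795 against 712, 877 and 847 (log2 difference 0.19, SE 0.17). Its lowest value was that of specimen 6, without which the difference was 0.05, and the groups overlapped.

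Kmt2d, a large methyltransferase that marks enhancers, and Setd7, which methylates histones and other proteins, were on the down-regulated list. Kmt2d had 3682, 4275 and 3560.2 scaled counts in sound trauma and 3934, 3361 and 3475 in MSC treated cochleae, a log2 difference of -0.10 that was smaller than its SE of 0.15 and was -0.02 without specimen 8. Setd7 had 2876, 2368 and 2023 against 2328, 1935 and 1762 (log2 difference -0.27, SE 0.18, and -0.13 without specimen 6). It was highest in specimen 6 and, among MSC treated animals, in specimen 13, as Smarcd3 was.

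The acetylation genes were all on the down-regulated list. Kat2a (GCN5), the acetyltransferase of the SAGA coactivator, had 694, 691 and 538 scaled counts in sound trauma and 552, 481 and 579.5 in MSC treated cochleae (log2 difference -0.25, SE 0.15). Hdac5, a deacetylase that leaves the nucleus on calcium signals in muscle and neurons, had 1862, 1981 and 1516 against 1729.8, 1319.5 and 1513. Its log2 difference was -0.23 (SE 0.16), with -0.15 without specimen 8, -0.13 without specimen 18 and -0.35 without specimen 10. In both genes specimens 6 and 8 were high and specimen 10 lay within the MSC treated values. Hdac11, a deacetylase and deacylase abundant in brain, had 563, 1000.0 and 363 against 365, 472 and 548, and its log2 difference of -0.37 (SE 0.37) turned to 0.01 without specimen 8.

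Sirt4 belongs to the sirtuin family but works in mitochondria, where it regulates glutamine use. It had 176, 183 and 135 scaled counts in sound trauma and 129.9, 97 and 138 in MSC treated cochleae (log2 difference -0.44, SE 0.22, unadjusted p 0.0865 and adjusted p 0.954 in limma, and -0.28 without specimen 18). Brd2, a BET protein that reads acetylated histones, was nearly flat, with 3102, 3497 and 3373 against 3005, 3267 and 3118 (log2 difference -0.09, SE 0.12, and -0.05 without specimen 8). It had the log2 difference nearest to 0 of the 30 genes.

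Polycomb repressive complexes, which keep developmental genes silent, were represented by 3 genes of the down-regulated list. Pcgf2 (MEL18), a core subunit, had 296, 364 and 300.2 scaled counts in sound trauma and 264, 265 and 248 in MSC treated cochleae. Its groups did not overlap, at 320.0 ± 38.4 and 259 ± 9.63 (SD, n = 3 each), with a log2 difference of -0.30 (SE 0.14, unadjusted p 0.0727 and adjusted p 0.954 in limma). Pcgf6, the subunit of a variant complex that can bind without the methyl mark, had 118, 143 and 58.1 against 73.8, 74.6 and 75.7, so that specimen 10 lay below all MSC treated libraries and specimens 6 and 8 above them (log2 difference -0.41, SE 0.35, and -0.15 without specimen 8). Cbx6, a chromobox reader expressed in brain, had 1523, 2469 and 1247 against 1498, 1314 and 1365, and its log2 difference of -0.27 (SE 0.25) turned to 0.01 without specimen 8.

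The groups did not overlap in 4 of the 30 genes. Lower in every MSC treated library were Kdm6b and Pcgf2, 2 genes, against a share of 2.92% over all genes tested. Higher in every MSC treated library were Arid3b and Baz1a, also 2 genes, against 4.25%. With libraries scaled by total reads, Arid3b and Baz1a stayed apart while the groups of Kdm6b and Pcgf2 overlapped, and with median-ratio scaling Mbd6 and Tet1 were apart as well. These genes came from lists made on the same libraries, so nothing about chromatin genes is read from those counts.

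Of the genes grouped under DNA methylation, Tet1, the dioxygenase that oxidises methylcytosine, was low in abundance. The authors' mean FPKM of Tet1 was 0.651 in sound trauma and 0.431 in MSC treated cochleae. Its scaled counts were 70.7, 139.6 and 77.7 against 48.8, 72.5 and 62.1. Specimen 8 was the highest and specimen 6 lay among the MSC treated values (log2 difference -0.59, SE 0.32, and -0.29 without specimen 8). Mbd6, grouped there by the name of its methyl-CpG-binding domain, joins the BAP1 deubiquitinase complex. It had 2011, 1963 and 1974 against 1724, 1802 and 1967. The log2 difference of Mbd6 was -0.12 (SE 0.11), with -0.07 without specimen 13 and -0.17 without specimen 20. The groups of Mbd6 overlapped through specimen 20 alone.

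Among the PHD finger and PR domain genes were the largest ratios between group means, 2.47 for Phf21b and 2.91 for Prdm8. Phf21b, a PHD finger protein of the nervous system, had 189, 201 and 58.1 scaled counts in sound trauma and 59.2, 49 and 72.8 in MSC treated cochleae. Specimens 6 and 8 stood at 3.25 and 3.46 times specimen 10, which lay within the MSC treated values. Its log2 difference was -1.12 (SE 0.50, limma adjusted p 0.954), and it was the only one of the 30 genes with an unadjusted p under 0.05 in 2 of 3 other tests on the reads. Those p were 0.0327 in edgeR's quasi-likelihood test (adjusted p 0.919), where 3.29% of all genes passed, and 0.0104 in DESeq2 (adjusted p 0.703), where 5.0% passed. In limma-voom 0 of the 30 passed, against 2.19% of all genes.

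Prdm8, a repressor in developing neurons, had 30.1, 119 and 5.36 scaled counts in sound trauma and 9.35, 17.4 and 26.2 in MSC treated cochleae. The highest and the lowest of the 6 values were both in the sound trauma group, at a ratio of 22.1. Its log2 difference of -0.73 had an SE of 1.04, and it turned to 0.30 without specimen 8. On the recovered reads it was -1.54 in edgeR and -1.55 in DESeq2, which compare group means of counts, and -0.67 in limma-voom, which compares means of logs as limma does.

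The genes that fold chromatin were both on the up-regulated list. Smc4, the ATPase core of condensin, which compacts chromosomes for cell division, had 794, 1285 and 1499 scaled counts in sound trauma and 1258, 1509 and 1544 in MSC treated cochleae (log2 difference 0.31, SE 0.25). Nipbl, which loads cohesin onto DNA, had 804, 1172 and 1191 against 1172, 1274 and 1169.7 (0.21, SE 0.18). Specimen 6 was the lowest in both, and without it the log2 differences were 0.04 and 0.03. The 4 proliferation markers at hand (Top2a, Cenpf, Kif20b and Mcm6), all from the up-regulated list, were also lowest in specimen 6, with sums of 2278, 4016 and 5485 in sound trauma and 3853, 4836 and 5202 in MSC treated cochleae. Their part in the Smc4 values was not tested.

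Both genes matched by spelling varied widely within groups. Smco1 had 268, 30.6 and 43.8 scaled counts in sound trauma and 123, 20.4 and 11.6 in MSC treated cochleae. Specimens 6 and 13 were highest in Smco1, as in the sum of the skeletal muscle markers, though not in every marker. Its log2 difference was -1.17 (SE 1.10) and became -0.22 without specimen 6. Phf24 had 418, 661 and 172 against 245, 350.3 and 1176, so that 1 MSC treated library held the highest value. Its log2 difference of 0.36 (SE 0.71) turned to -0.17 without specimen 10 and to -0.31 without specimen 20.

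Set side by side, most genes of the down-regulated list were highest in specimen 8 and most of the up-regulated list lowest in specimen 6. Of the 21 genes listed as down-regulated, 15 were highest in specimen 8, 5 in specimen 6 (Kat2a, Mbd6, Setd7, Smarcd3 and Smco1) and 1 in specimen 10 (Kdm6b). Over all genes tested, 28.2% were highest in specimen 8, and among those with their highest value in a sound trauma library, as the selection all but fixes for these 21, the share was 44.1%. The median of the 21 genes lay 0.41 above the MSC treated mean in specimen 8, 0.22 above in specimen 6 and 0.09 above in specimen 10 on the log2 scale. Of the 9 genes listed as up-regulated, 8 were lowest in specimen 6 and Phf24 in specimen 10, while specimen 6 was lowest in 30.1% of all genes tested and in 46% of those with their lowest value in a sound trauma library, as the selection all but fixes for these 9. Their median relative to the MSC treated mean was -0.58 in specimen 6, -0.16 in specimen 8 and -0.02 in specimen 10.

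**Figure D3:**
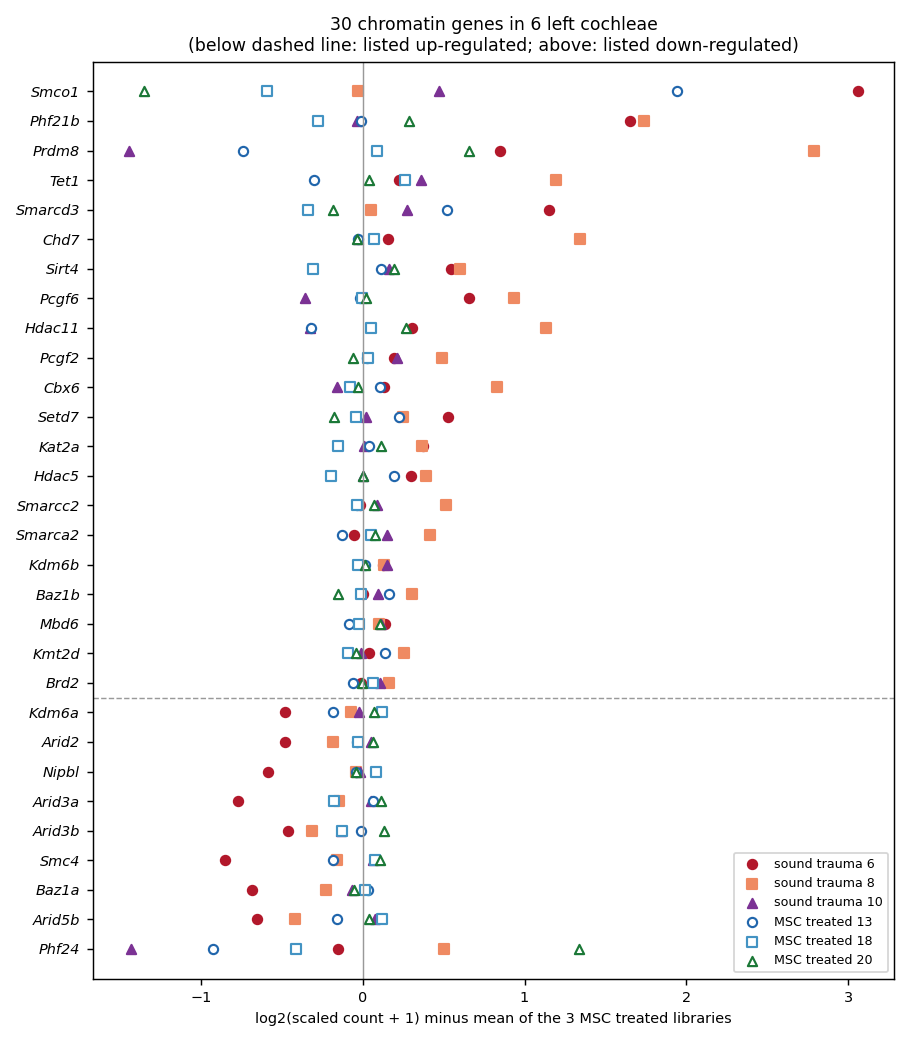
Log2(scaled count + 1) of the 30 genes in each library minus the mean of the 3 MSC treated libraries (horizontal axis), with genes of the down-regulated list above the dashed line and those of the up-regulated list under it. Specimen 8 is the rightmost sound trauma point for 15 of the 21 genes above the line, and specimen 6 is the leftmost point for 8 of the 9 genes under it.

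Sound trauma specimen 10 differed less from the treated animals in the median. It lay within the range of the MSC treated libraries in 10 of the 21 genes of the down-regulated list, above it in 7 and below it in 4, and within it in 6 of the 9 genes of the up-regulated list. The share within that range was 55.8% over all genes tested. The median log2 difference was -0.27 for the 21 genes and 0.30 for the 9, against 0.00136 over all genes tested. Without specimen 8 the median of the 21 became -0.14, and without specimen 6 that of the 9 became 0.07. In 26 of the 30 genes the sign held whichever library was left out. The exceptions were Cbx6, Hdac11 and Prdm8 without specimen 8 and Phf24 without specimen 10 or specimen 20. The lists fixed these directions on the same libraries, so the medians and the held signs are descriptions and no measure of stability.

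Without specimen 10, limma gave an unadjusted p under 0.05 to 7 of the 30 genes, while 15.6% of all genes tested passed. These 7 were Arid5b and Baz1a, which were higher, and Kat2a, Pcgf6, Phf21b, Prdm8 and Sirt4, which were lower in MSC treated cochleae. The adjusted p of these 7 was between 0.241 and 0.317, so none passed over all genes. The log2 difference of Phf21b was then -1.69 and that of Pcgf6 -0.79. With any library but that of specimen 10 left out, limma gave an unadjusted p under 0.05 to 0 of the 30. The share of all genes tested that passed was then between 1.08% (without specimen 20) and 1.86% (without specimen 6).

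The libraries that stood apart here also stood apart in markers of other tissues, of which only genes named in the authors' lists could be found. Neuron markers (17 of 25 found, all on the down-regulated list) summed to 21458, 54272 and 10826 scaled counts in sound trauma and 12183, 15931 and 15730 in MSC treated cochleae. Choroid plexus markers (6 of 9) summed to 8227, 5568 and 356 against 305, 415 and 315, so they were high in specimens 6 and 8 and not in specimen 10, as Phf21b and Pcgf6 were. Cerebellar markers (11 of 14), which include Calb1 and Car8 and so are not of granule cells alone, summed to 4390, 25990 and 1929 against 2036, 2669 and 1820. None of the markers of these 3 lists was at 0 in any library.

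Astrocyte markers (8 of 11) ran from 3743 to 26410 scaled counts in sound trauma and from 2948 to 6729 in MSC treated cochleae, and oligodendrocyte markers (10 of 15) from 11017 to 33915 and from 10207 to 24296, both highest in specimen 8. Skeletal muscle markers (23 of 27) were highest in specimen 6, at 1107740 scaled counts, and lowest in specimen 8, at 46948. Keratinocyte markers (7 of 13) summed to 1681 in specimen 8 and to between 36.6 and 209 elsewhere, with Calm4 at 0 in the other 5 libraries and Krt1, Krt15 and Klk7 at 0 in some. Their part in the values of the 30 genes was not tested.

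Markers of the labelled tissue, such as the hair cell genes Otof and Pou4f3 and the acellular matrix gene Otog, were found in every library. The 8 cochlear markers at hand, of 28, were all on the up-regulated list and summed to 2656, 2882 and 6117 in sound trauma and 4538, 5174 and 4645 in MSC treated cochleae. Specimen 10 had the highest sum, and specimens 6 and 8 the lowest. The 4 marrow and lymphoid markers at hand, of 25, were on the up-regulated list too, at 9136, 11771 and 17581 against 13484, 16208 and 14893, again lowest in specimen 6. All these lists cover the listed genes only, which were chosen on the same contrast.

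**Figure D4:**
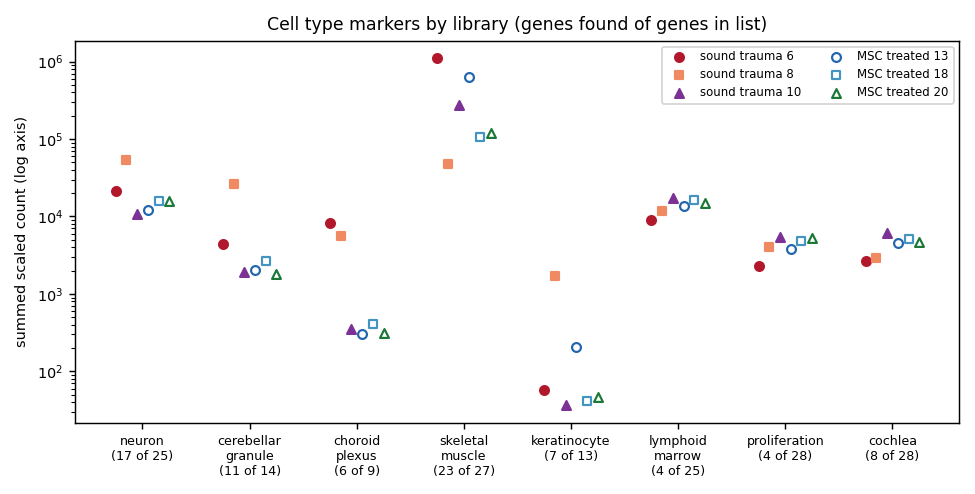
Summed scaled counts of tissue marker lists in the 6 libraries (log axis). Neuron, cerebellar (labelled cerebellar granule) and keratinocyte markers are highest in specimen 8, and skeletal muscle and choroid plexus markers in specimen 6. Cochlear, marrow and proliferation markers are lowest in specimen 6.

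A further 32 chromatin genes whose symbols fall outside the spelling rule were on the authors' lists, 21 as down-regulated and 11 as up-regulated. Their median log2 differences were -0.29 and 0.34, and became -0.13 for the 21 without specimen 8 and 0.09 for the 11 without specimen 6, where 3 of the 11 changed sign. By library, 18 of the 21 were highest in specimen 8, and 11 of the 11 were lowest in specimen 6. Limma gave 1 of the 32 an unadjusted p under 0.05, Hr, a histone demethylase of skin and brain that acts as a corepressor of transcription. Hr had 1368, 1621 and 657 scaled counts in sound trauma and 728, 461 and 466 in MSC treated cochleae (log2 difference -1.07, SE 0.37, p 0.0255, adjusted p 0.954). Over all genes tested limma called 0.670% lower and 1.68% higher at that threshold, and since the 32 were also selected on this contrast, nothing is read from 1 of 32. The groups overlapped, since specimen 10 lay below specimen 13. The groups did not overlap in Bap1, Bcl7b, Meaf6 and Scmh1, which were lower, and in Rcor1 and Scml4, which were higher in MSC treated cochleae. Over all genes tested 2.92% were apart in the lower and 4.25% in the higher direction, and nothing is read from these genes either.

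The largest differences of those 32 were in genes known from neurons. Dpf1 (BAF45B), a subunit of the neuronal form of SWI/SNF, had 29, 141 and 11.6 scaled counts in sound trauma and 17.7, 13.3 and 17.5 in MSC treated cochleae (log2 difference -1.15, SE 0.85). Prmt8, an arginine methyltransferase of the brain, had 74.2, 385 and 43.8 against 32.2, 49 and 82.5 (-1.08, SE 0.82). Specimen 8 had the top value of both, and the differences without it were -0.19 and -0.16. On the other side, Scml4, a Polycomb-like protein, had 38.2, 40.2 and 68.8 against 70.6, 69.4 and 71.8 (0.57, SE 0.28), and Hells, a remodeler of dividing cells, 74.2, 189 and 189 against 167, 211 and 234 (0.54, SE 0.39). Without specimen 6 that of Scml4 was 0.42 and that of Hells 0.09.

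Some of these genes were looked at after their values had been seen, because they belong to one machine. Actl6b (BAF53B) and Ss18l1 (CREST) are, with Dpf1, subunits that neurons exchange into SWI/SNF when they stop dividing. Actl6b had 121, 301 and 22.3 scaled counts in sound trauma and 29.1, 40.9 and 76.7 in MSC treated cochleae, and Ss18l1 148, 306 and 115 against 117, 143 and 129. Both were highest in specimen 8, as Dpf1 and the ubiquitous subunits Smarcc2 and Smarca2 were, but specimen 8 was 13.5 times specimen 10 in Actl6b and only 1.34 times in Smarcc2. The repressor REST, which keeps neuronal genes off in other cells, and its partner Rcor1 (CoREST) were on the up-regulated list. Rest had 243, 323 and 426 against 402, 466 and 417, and Rcor1 98.5, 141 and 182 against 209, 197 and 187. Smyd1, a methyltransferase of striated muscle, had 2211, 132 and 683 against 1249, 318 and 345, the order of the summed skeletal muscle markers. Its log2 difference of -0.18 (SE 1.06) turned to 0.78 without specimen 6.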

How the data were processed

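Total RNA of 6 left cochleae (3 per group) was sequenced by the authors, and reads were aligned to the C57BL/6NJ genome in their AIR software. The authors deposited a signal per gene, which is the read count multiplied by 1 TMM factor per library, and the mean FPKM of each group in the authors' lists, used here only as a level per length. The tool that counted reads and its handling of strand are not given in the sources used here. The lists also hold log2 fold changes and FDR values from NOISeq, which were not used. The study's methods name more animals per condition than the 3 per group analysed here, and nothing else tells whether the specimens were processed together, so p-values measure the spread between these samples.

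Dividing by the value of 1 read gave whole reads for 100% of the values above 0 (tolerance 0.01 read). Of 25369 genes with a read, edgeR's filterByExpr kept 15970. The main test was limma 3.58.1 (trend) in R 4.3.3 on log2(scaled count + 1), with Benjamini-Hochberg adjustment over all genes tested, and the fold changes are on that scale. Other tests, applied to the recovered reads, were edgeR 4.0.16 (quasi-likelihood), DESeq2 1.42.0 and limma-voom. The test was tried on simulated data before use. Means are ± SD.

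The 30 genes, the 32 further chromatin genes and the marker lists were chosen with earlier results of these data known. Symbols come from the authors' lists alone, and RefSeq promoter windows were matched by symbol. Genes are described in every library if they had an unadjusted p under 0.05, groups without overlap, a place among the 5 largest log2 differences of their list or among the 2 most abundant of their role; here that was widened to all 30. Of the 32, those with such a p and the 2 largest differences of each direction were named by rule. Other scalings, filters, pseudocounts and tools were tried, and each library was left out in turn. The result of 1 further chromatin gene is not reported here.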

Additional observations from a re-analysis of the deposited data

How the results depend on the processing

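No sign of a log2 difference among the 30 genes turned under another scaling (median ratio, total reads, upper quartile), filter, pseudocount or test. Scaling by total reads brought the differences of Baz1b, Brd2, Kdm6b, Kmt2d and Mbd6 to between -0.07 and -0.01. The filter of 10 reads in every library left 29 of the 30, without Prdm8. The count of genes with an unadjusted p under 0.05 was 0 in limma and 1 in edgeR and in DESeq2, and from 0 to 7 with each library left out, the 7 without specimen 10. The count of genes whose groups do not overlap was 4, and was 2 with scaling by total reads and 6 with median-ratio scaling. With each library left out it ran from 5 to 16, where fewer samples make such gaps more frequent. The share over all genes was not computed for these other settings, so nothing about the 30 genes is read from them. The median log2 difference of the 9 genes of the up-regulated list was 0.30 and ran from 0.067 (without specimen 6) to 0.39, and that of the 21 genes of the down-regulated list from -0.39 to -0.14. The count of genes highest in specimen 8 has no value without specimen 8. No paired analysis was possible because the specimen numbers of the 2 groups are not shared. The lowest values of the 30 genes were those of Prdm8 and Smco1, at 5.36 and 11.6 scaled counts, where counting error is largest, and with 3 libraries a group the spread between animals is poorly known.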
